A study of Mus musculus with 9 samples.

Results

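Gfap, Vim, Nes and Synm encode 4 intermediate filament proteins of glia: glial fibrillary acidic protein, vimentin, nestin and synemin. They were chosen by gene symbol, and all 4 were found among the 14194 genes of a table of ribosome-bound RNA from the mouse retina. The RNA came from 9 libraries, 5 labelled ONC (optic nerve crush) and 4 labelled Control. Each library pooled 2 retinae, and is named here by the numbers of its 2 animals: 913/986, 914/92, 938/88, 976/978 and 981/982 for ONC, and 914/92, 938/88, 976/978 and 981/982 for Control.

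All animals, controls included, were Aldh1l1-cre/ERT2+; NuTRAP+ and had been given tamoxifen; the labels used give no age. NuTRAP tags ribosomes with GFP after Cre recombination, and the libraries are the fraction bound by an antibody to GFP. For ONC, the optic nerve was crushed with a clamp held for 3 s, roughly 1 mm from the eye, and the retinae were taken at 72 h. Control libraries came from the fellow eyes of the same animals, which were untreated or had a sham procedure, without a label to tell these apart. The series text gives n = 5; for pool 913/986, the Control eye was not analysed here. The Aldh1l1 promoter is active in astrocytes as well as in Müller glia, and the series describes the RNA as that of Müller glia.

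Müller glia are the radial glia of the retina and span it from the vitreous to the photoreceptors. Vimentin is their constitutive filament, whereas GFAP is found in the healthy rodent retina mainly in astrocytes and appears in Müller glia after many kinds of damage. Nestin is best known from neural progenitors, and synemin joins filaments of vimentin, desmin or GFAP and tethers them to other structures.

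On mm10, Gfap lies on the minus strand of chr11:102887336-102897200, Vim on the plus strand of chr2:13574311-13582826, Nes on the plus strand of chr3:87971093-87980451 and Synm on the minus strand of chr7:67730161-67759742. Their promoters are shown because the list of regulators described further on includes STAT and AP-1 factors, which read such DNA. Each window runs from 250 bases before the RefSeq start to 10 bases from it, 5′ to 3′ on the strand of the gene (GRCm38.p6). The windows are chr11:102897191-102897450, minus strand, for Gfap, chr2:13574061-13574320, plus strand, for Vim, chr3:87970843-87971102, plus strand, for Nes and chr7:67759733-67759992, minus strand, for Synm. Capitals mark matches, on either strand, to TTCNNNGAA, the paired half-sites of STAT factors, TGANTCA, the AP-1 element, CCAAT, and TATAAA.
Gfap: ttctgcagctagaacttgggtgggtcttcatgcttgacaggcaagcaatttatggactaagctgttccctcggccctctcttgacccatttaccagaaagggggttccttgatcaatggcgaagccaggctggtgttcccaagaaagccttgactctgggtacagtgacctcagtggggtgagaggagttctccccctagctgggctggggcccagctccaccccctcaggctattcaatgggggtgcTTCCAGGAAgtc
Vim: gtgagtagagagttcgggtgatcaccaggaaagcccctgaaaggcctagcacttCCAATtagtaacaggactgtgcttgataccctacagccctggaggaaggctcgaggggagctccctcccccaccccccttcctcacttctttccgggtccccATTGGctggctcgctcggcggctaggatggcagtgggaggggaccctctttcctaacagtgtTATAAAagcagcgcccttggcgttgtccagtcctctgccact
Nes: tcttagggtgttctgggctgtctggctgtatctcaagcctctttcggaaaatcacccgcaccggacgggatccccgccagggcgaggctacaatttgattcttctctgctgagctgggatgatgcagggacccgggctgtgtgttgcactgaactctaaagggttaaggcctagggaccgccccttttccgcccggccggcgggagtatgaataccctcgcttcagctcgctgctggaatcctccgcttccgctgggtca
Synm: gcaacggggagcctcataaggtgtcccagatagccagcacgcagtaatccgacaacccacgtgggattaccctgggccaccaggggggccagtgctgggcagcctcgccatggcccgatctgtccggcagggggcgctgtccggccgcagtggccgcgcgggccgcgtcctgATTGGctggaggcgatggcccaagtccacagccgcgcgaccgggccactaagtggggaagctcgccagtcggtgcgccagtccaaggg

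The Gfap window holds TTCCAGGAA, a match to the STAT motif, from base -2 to base 7 around the start. Among 32851 windows of this length, 7.33% hold that motif on either strand. The Vim window holds CCAAT at -196 to -192, its reverse complement at -94 to -90 and TATAAA at -32 to -27, and the Synm window holds the reverse complement of CCAAT at -78 to -74. CCAAT is in 34.6% of all windows and TATAAA in 12.7%. No match to any of the 4 motifs was found in the Nes window, and none to the AP-1 element, held by 7.03% of windows, in any of the 4. These are matches of letters only.

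The deposited values are log2 values, each relative to a baseline of that gene in Control, which may include the Control eye of pool 913/986 that was not analysed here, so they compare libraries and hold no absolute level, and levels of different genes cannot be compared. Between 371 and 597 genes stood above 1 in an ONC library, and between 39 and 342 in a Control library. Raw read totals were not given and the depth is unknown. All 4 filament genes passed the authors' filter on low raw values in both conditions.

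Gfap, Vim and Nes had higher mean values in ONC than in Control libraries, and Synm did not. The mean differences were 3.48-fold for Gfap, 3.32-fold for Nes, 1.98-fold for Vim and 0.936-fold for Synm. Across all genes the median log2 difference was -0.00062, with 90% of genes between -0.70 and 0.63. With limma over all 14194 genes and Benjamini-Hochberg adjustment, 0 of the 4 passed an adjusted p under 0.05, a line passed by 165 genes, or 1.16% (0.514% higher and 0.648% lower in ONC). For none of the 4 did the groups separate fully, as they did for 7.83% of all genes (3.39% with every ONC library above every Control library). At an unadjusted p under 0.05 stood 3 of the 4, against 19.5% of all genes. In such bulk material, fewer cells of a type and less RNA per cell cannot be told apart.

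**Figure D1:**
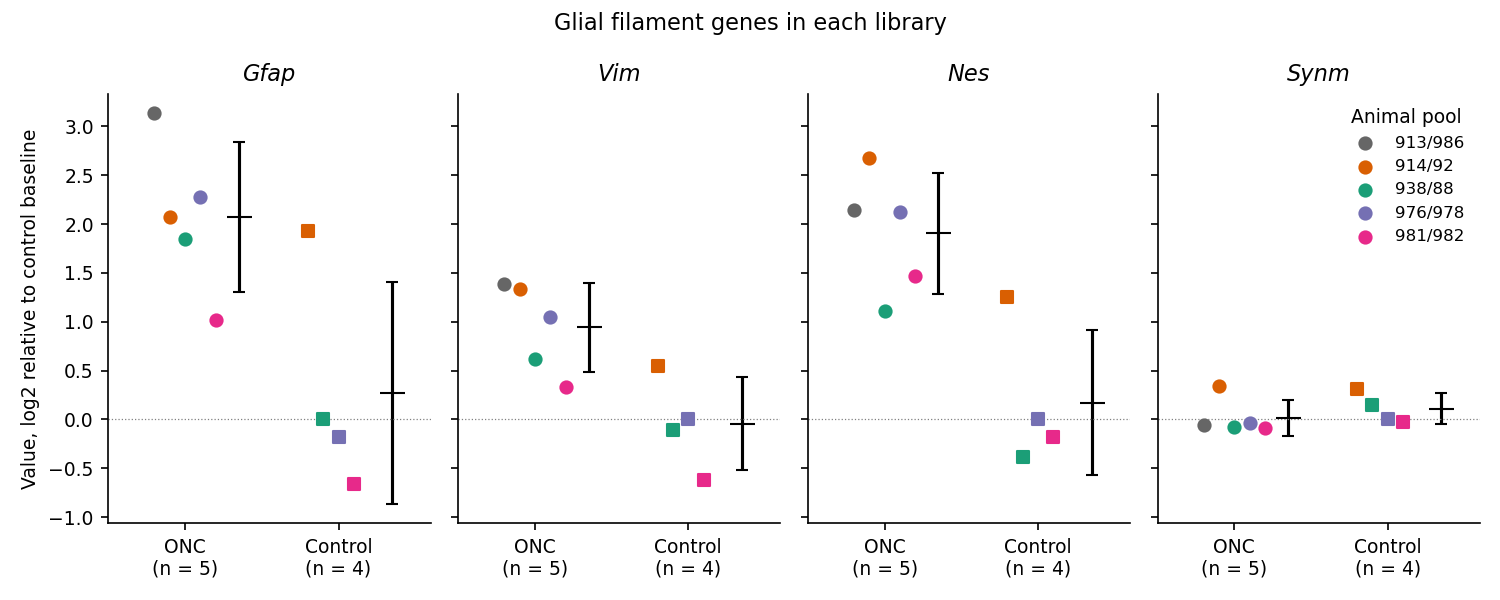
Log2 value relative to the Control baseline (vertical axis) of Gfap, Vim, Nes and Synm in each library, ONC as circles on the left and Control as squares on the right; the black bars are the mean ± SD (n = 5 ONC, n = 4 Control). Control 914/92 stands at 1.92 for Gfap, 0.55 for Vim and 1.25 for Nes, above every other Control library and within the range of the ONC libraries for each of these 3 genes.

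Gfap, the filament whose appearance in Müller glia marks a reactive retina, had values of 3.14, 2.07, 1.85, 2.28 and 1.02 in ONC libraries 913/986, 914/92, 938/88, 976/978 and 981/982, against 1.92, 0.00, -0.18 and -0.66 in Control libraries 914/92, 938/88, 976/978 and 981/982. All 5 ONC libraries lay above the 3 lower controls, but Control 914/92 lay above ONC 938/88 and ONC 981/982, so the groups overlapped. The means were 2.07 ± 0.76 in ONC and 0.27 ± 1.14 in Control (SD, n = 5 and 4). The log2 difference was 1.80 ± 0.56 (SE, 95% interval 0.54 to 3.06; limma adjusted p = 0.148), and the fold 3.48 had an interval of 1.45 to 8.34. A difference this large or larger was found in few genes, since 114 of 14194 had a higher one. The spread of Gfap over the Control libraries was wider than that of 98.6% of genes.

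Vim, the main filament of resting Müller glia, had values of 1.38, 1.34, 0.62, 1.04 and 0.34 in the same order of ONC libraries, against 0.55, -0.11, 0.00 and -0.62 in Control libraries. Only Control 914/92 reached into the ONC range, above ONC 981/982. The means were 0.94 ± 0.46 in ONC and -0.04 ± 0.48 in Control (SD, n = 5 and 4), a log2 difference of 0.99 ± 0.28 (SE, 95% interval 0.35 to 1.63; limma adjusted p = 0.126). In folds this was 1.98, with an interval of 1.27 to 3.09.

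Nes, the filament of neural progenitors, had values of 2.15, 2.67, 1.11, 2.12 and 1.47 in ONC libraries, against 1.25, -0.39, 0.00 and -0.18 in Control libraries. Control 914/92 again lay inside the ONC range, above ONC 938/88, and the other 3 controls lay more than 1 below every ONC library. The means were 1.90 ± 0.62 in ONC and 0.17 ± 0.74 in Control (SD, n = 5 and 4). The log2 difference was 1.73 ± 0.40 (SE, 95% interval 0.83 to 2.64; limma adjusted p = 0.0830), or 3.32-fold with an interval of 1.77 to 6.24. This was the smallest adjusted p of the 4 genes.

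Synm, whose product links the other filaments, had values of -0.05, 0.34, -0.08, -0.03 and -0.09 in ONC libraries, against 0.31, 0.15, 0.00 and -0.02 in Control libraries. The 2 highest values were those of ONC 914/92 and Control 914/92, the eyes of the same animals, and the groups overlapped over nearly their whole range. The means were 0.02 ± 0.18 in ONC and 0.11 ± 0.16 in Control (SD, n = 5 and 4). The log2 difference of -0.09 ± 0.12 (SE, limma adjusted p = 0.664) had a 95% interval of -0.37 to 0.18, which leaves room for a fold between 0.775 and 1.13.

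Exact two-sided permutation tests of the difference of means over all assignments of the libraries gave p = 0.0476 for Gfap, 0.0317 for Vim, 0.0238 for Nes and 0.405 for Synm. These are p-values of single genes, with no adjustment over all genes. They treat the 9 libraries as independent and ignore that 4 pools gave both eyes. The smallest p this unpaired shuffling allows is 0.00794, against 0.125 for the sign flips over pools given further on.

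Control 914/92 was the highest of the 4 Control libraries for all 4 genes, as it was for 31.8% of all genes. For none of the 4 did it meet the criterion for a library far from its group, which is described further on. Within that library, 21 genes had a higher value than Gfap, 97 a higher one than Nes, 629 than Vim and 1558 than Synm. It was not the Control library with the most genes above 1, with 161 against 342 in Control 981/982. Leaving out the highest Control library raises the ONC minus Control difference by construction, so the calls without it are descriptions. Without Control 914/92, Gfap differed by 2.35 ± 0.42 (SE, limma adjusted p = 0.0412) and Nes by 2.09 ± 0.33 (adjusted p = 0.0292). Both were then past the threshold, as were 1.31% of all genes (0.817% higher in ONC). Vim then differed by 1.19 ± 0.27 (adjusted p = 0.0770) and Synm by -0.03. With any other single library left out, neither Gfap nor Nes passed (adjusted p = 0.0900 to 0.358 for Gfap and 0.0709 to 0.240 for Nes). Without pool 914/92 altogether, 1.3% of all genes passed (0.782% higher in ONC), and Nes was among them, with a difference of 1.90 ± 0.27 (adjusted p = 0.0247). Gfap then differed by 2.35 ± 0.46 (adjusted p = 0.0679) and Vim by 1.09 (adjusted p = 0.105).

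The fellow eyes of the same animals allowed the difference to be taken within each of 4 pools. Nes was 2.68-fold higher in the ONC eyes of pool 914/92, 2.83-fold in 938/88, 4.35-fold in 976/978 and 3.14-fold in 981/982. Vim was 1.73-, 1.65-, 2.06- and 1.93-fold higher in the same order of pools. Both thus had a similar fold in every pool, pool 914/92 included, although both of its eyes had high values.

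Gfap was 1.11-fold higher in pool 914/92, against 3.60-, 5.49- and 3.20-fold in pools 938/88, 976/978 and 981/982. The log2 difference of 0.14 in pool 914/92 was higher than that of 62.9% of genes in that pool, whereas in the other 3 pools Gfap ranked above 98.7 to 99.1% of genes. Synm differed by 0.02, -0.23, -0.03 and -0.07 on the log2 scale. Gfap, Vim and Nes were higher in ONC in all 4 pools, which held for 17.9% of all genes, and Synm in 1.

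**Figure D2:**
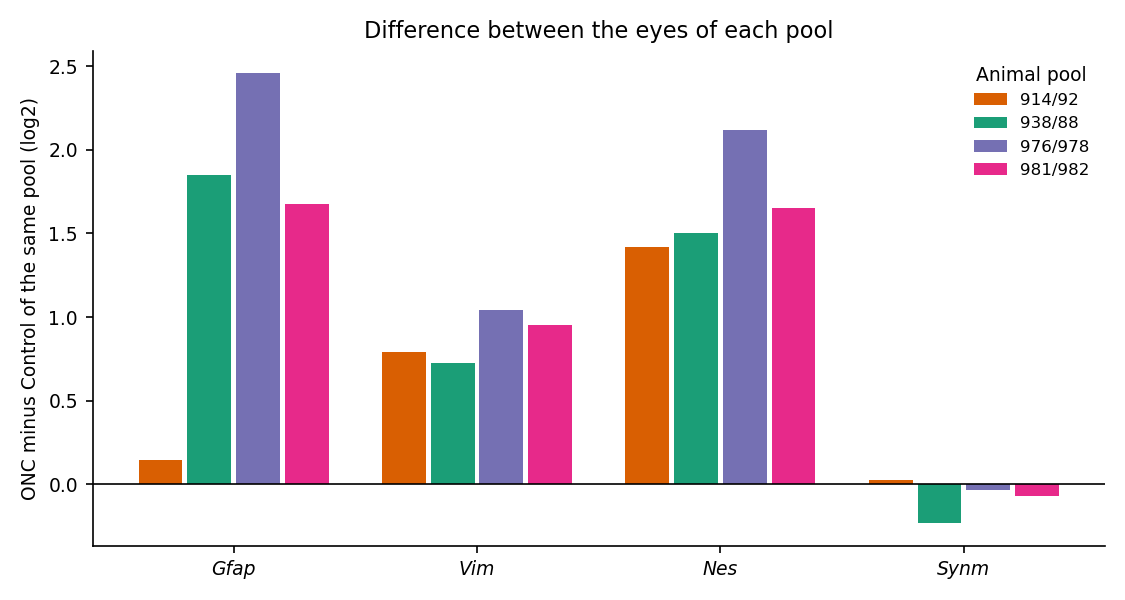
Log2 difference, ONC minus Control, between the eyes of the same animals (vertical axis) for each gene, with 1 bar for each of the 4 pools that have both eyes. The bars of Nes lie between 1.42 and 2.12 and those of Vim between 0.73 and 1.04, while that of Gfap in pool 914/92 is 0.14 and in the other pools 1.68 to 2.46.

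When limma took the animal pool as a block, to which ONC 913/986 adds nothing for want of its fellow eye, Nes differed by 1.67 ± 0.14 (SE, adjusted p = 0.0317) and Vim by 0.88 ± 0.09 (adjusted p = 0.0373). Both then rose past the threshold, as did 0.909% of all genes (0.479% higher and 0.43% lower in ONC), and Gfap, at 1.53 ± 0.39 (adjusted p = 0.112), and Synm (adjusted p = 0.586) did not. Those 2 calls ended when a variance trend was added to the block (adjusted p = 0.0801 for each), and when pool 914/92 was left out of it (adjusted p = 0.0839 for Nes and 0.0930 for Vim). Exact sign flips over the 4 pools cannot give a p below 0.125, and gave that value for Gfap, Vim and Nes.

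**Figure D3:**
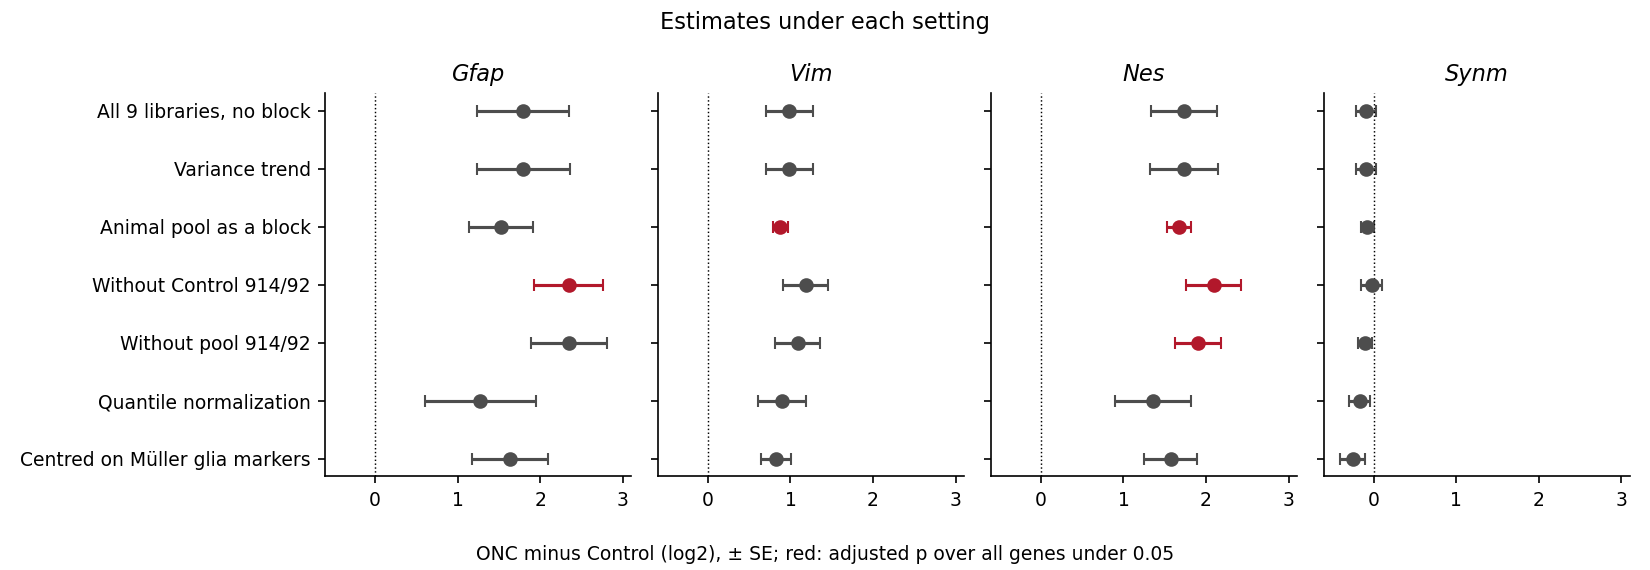
Log2 difference, ONC minus Control, ± SE (horizontal axis) of each gene under each way of fitting (vertical axis), with red points for an adjusted p under 0.05. Gfap is red at 2.35 without Control 914/92, Vim at 0.88 with the pool as a block, and Nes with that block and without Control 914/92 or its pool; Synm is red nowhere.

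The 3 higher genes did not move by one shared amount. Gfap exceeded Vim by 0.68 to 1.75 in ONC libraries and by 1.38 in Control 914/92, against -0.18 to 0.11 in the other controls. Vim minus Nes was -1.34 to -0.49 in ONC libraries and -0.71 in Control 914/92, against -0.43 to 0.28 in the other controls. For Gfap minus Nes the values were -0.61 to 0.99 in ONC libraries, 0.67 in Control 914/92 and -0.47 to 0.39 in the other controls. These pairings compare changes relative to each gene's own baseline and not levels. Control 914/92 lay within the ONC range each time, but for Gfap minus Nes so did every other Control library.

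The fraction was checked for its cell types by marker lists, whose values are again relative to Control. For each list below, the shares of all genes that passed were 0.514% higher and 0.648% lower in ONC. All 15 Müller glia markers and 7 of 8 retinal astrocyte markers were in the table, and so were all 10 photoreceptor markers, so that presence alone does not tell how pure the fraction was. The median of the Müller glia markers was -0.20 to 0.50 in ONC libraries, 0.23 in Control 914/92 and -0.46 to 0.02 in the other controls, and 0 of 15 passed the test. Control 914/92 was the highest Control library for 12 of the 15, against 31.8% of all genes. The count was 4 of 7 for astrocyte, 6 of 12 for ganglion cell, 2 of 6 for fibroblast and 1 of 8 for pericyte markers. It was 0 of 11 for endothelial, 0 of 10 for photoreceptor, 0 of 11 for bipolar, amacrine and horizontal cell and 0 of 3 for other leukocyte markers. Clu and Crym had the smallest p, with differences of 0.61 ± 0.16 (SE, limma adjusted p = 0.106) and 1.22 ± 0.32 (adjusted p = 0.106; 0.0428 with the block, past the threshold). Astrocyte markers had medians of -0.23 to 0.46 in ONC libraries, 0.21 in Control 914/92 and -0.47 to 0.00 in the other controls. None of the 7 passed. Aldh1l1, whose promoter drives the Cre, had 0.22 to 1.07 in ONC libraries, 0.50 in Control 914/92 and -0.47 to 0.07 in the other controls. Its difference was 0.68 ± 0.23 (SE, limma adjusted p = 0.165, and 0.0530 with the block), and Ndp differed by 0.34 ± 0.22 (adjusted p = 0.391).

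Set against the Müller glia median of its own library, Vim lay at 0.54 to 1.15 in ONC libraries and at 0.32 or below in Control libraries, with no overlap. Nes lay at 1.08 to 2.17 in ONC libraries and at 1.03 or below in Control libraries, again with no overlap. Under this centring the groups did not overlap for 4.26% of all genes, and every ONC library lay above every Control library for 1.87%. Gfap lay at 1.22 to 2.90 in ONC libraries, at 1.70 in Control 914/92 and at -0.20 to 0.00 in the other controls. Synm lay at -0.29 to 0.11 in ONC libraries and -0.02 to 0.44 in Control libraries. With this centring, chosen after the data were seen, the median of all genes shifted by -0.16, and relative to the Müller markers the differences were 1.64 for Gfap, 0.83 for Vim, 1.57 for Nes and -0.26 for Synm, none of which passed the test (limma adjusted p = 0.216, 0.100, 0.0758 and 0.530).

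Markers of cells other than glia moved too. Of 8 markers of other leukocytes 3 were measured. S100a8 and Cd52 passed the raw-value filter in 1 condition only, as did 5 of the 15 microglia and macrophage markers, Cd68 among them. A gene kept through the condition in which it is high is biased towards a difference, so counts and medians of these lists are descriptions. Higher in ONC were S100a8 and S100a9, the calprotectin subunits of neutrophils and monocytes, by 3.04 ± 0.51 and 2.06 ± 0.31, and Cd52, a surface protein of lymphocytes and monocytes, by 3.46 ± 0.61 (SE, limma adjusted p = 0.0319, 0.0188 and 0.0367). Leaving out Control 914/92 ended the calls of S100a8 and Cd52 (adjusted p = 0.0570 and 0.0575), as did the block (0.0737 and 0.0989), and a variance trend ended all 3 (0.0642 for S100a8, 0.0526 for S100a9 and 0.0575 for Cd52). Over single libraries left out the adjusted p ran to 0.117 for S100a8, 0.0741 for S100a9 and 0.0976 for Cd52. Their library median was 2.25 to 3.48 in ONC libraries, -0.06 in Control 914/92 and 0.00 to 1.09 in the other controls. Of 15 microglia and macrophage markers 1 passed, the lysosomal protein gene Cd68, which rose by 3.11 ± 0.41 (adjusted p = 0.0104, and 0.0530 with the block). The median difference over the 15 was 1.59, and the library median was 0.28 to 2.99 in ONC libraries, 0.00 in Control 914/92 and -0.13 to 0.00 in the other controls. The lowest ONC value, 0.28, was that of library 914/92, in which Nes was at its highest, whereas in ONC 913/986, in which Gfap and Vim were at their highest, it was 2.64. The part of these cells in the filament values was not tested; in Control 914/92, where Gfap stood at 1.92, these medians were -0.06 and 0.00, but 4 of the 15 microglia and macrophage markers were at their highest Control value there, among them Cd68 at 0.97, C1qa at 0.79 and C1qc at 1.32.

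Of 12 retinal ganglion cell markers 7 fell (limma adjusted p = 0.000821 to 0.0400), against 0.648% of all genes. Sncg fell by 1.33, Pou4f2 by 1.52, Rbpms2 by 1.15, Pou4f1 by 1.12 and Tubb3 by 0.85, and the other 2, Nefh and Nefl, are described with the filaments. Leaving out Control 914/92 ended the calls of Pou4f1 and Tubb3, as did most other single libraries (up to 0.132 and 0.0937), and the block those of Pou4f1 and Nefl. With a variance trend Pou4f2 (0.0545), Pou4f1 (0.0723) and Tubb3 (0.0575) missed the threshold too. Their median was -1.22 to -0.69 in ONC libraries, 0.11 in Control 914/92 and -0.23 to 0.08 in the other controls. Calb1 alone of 11 markers of bipolar, amacrine and horizontal cells passed, with a difference of -1.26 ± 0.24 (adjusted p = 0.0493; 0.0737 with the block and up to 0.155 with a library left out), and 0 of 10 photoreceptor, 0 of 11 endothelial, 0 of 8 pericyte and 0 of 6 fibroblast markers passed. The endothelial median was -0.94 to 0.48 in ONC libraries, -1.05 in Control 914/92 and 0.00 to 0.71 in the other controls. The photoreceptor median was -1.09 to 0.10 in ONC libraries, -0.61 in Control 914/92 and 0.00 to 0.21 in the other controls, and the pericyte median -0.81 to 0.31, -0.55 and -0.09 to 0.69 in the same order. The part of these shifts in the filament values of that library was not tested.

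**Figure D4:**
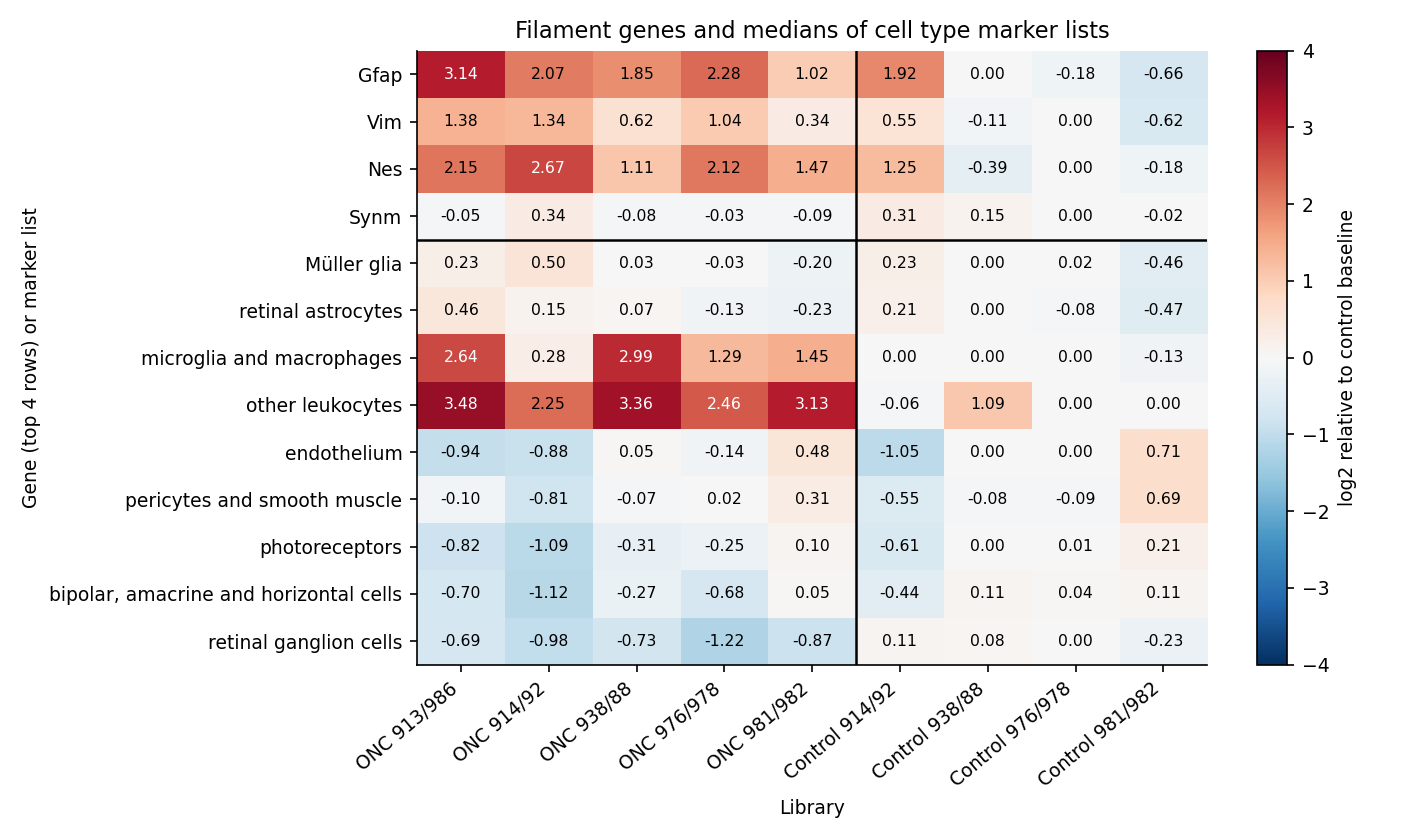
Heat map of the log2 value relative to Control (colour) of the 4 filament genes, top 4 rows, and of the median of each cell type marker list, rows below, in each library (columns, ONC on the left and Control on the right). The other leukocyte median is 2.25 to 3.48 in ONC libraries; Control 914/92 shows Gfap at 1.92 beside a Müller glia median of 0.23 and an other leukocyte median of -0.06.

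Of the 6 genes on the list of other type III and IV intermediate filaments, which form filaments of the cytoplasm, 2 fell, against 0.648% of all genes. Both encode neurofilament subunits of ganglion cell axons. Nefh, the heavy subunit, had -2.03, -2.16, -1.50, -1.87 and -1.48 in ONC libraries, against 0.00, 0.16, 0.06 and -0.20 in Control libraries, and Control 914/92 was no exception. Nefh fell by 1.81 (SE 0.16, limma adjusted p = 0.00139), and Nefl, the light subunit, with means of -0.97 ± 0.25 in ONC and -0.03 ± 0.14 in Control (SD, n = 5 and 4), fell by 0.94 (SE 0.14, adjusted p = 0.0188). With a variance trend both missed the threshold (adjusted p = 0.0826 and 0.0575), as Nefl did with the block (0.0564) and when ONC 913/986, Control 938/88 or Control 976/978 was left out (up to 0.0854). Ina differed by -0.88 ± 0.17 (adjusted p = 0.0511) and Nefm, the medium subunit, by -0.46 ± 0.18 (adjusted p = 0.207), while Prph, for peripherin, differed by 0.06 ± 0.22 and Des, for the muscle filament desmin, by 0.27 ± 0.44. The median of the 6 was -0.67, and for 3 of them every ONC library lay below every Control library, as for 4.44% of all genes. Nefl, Nefm and Nefh are also on the list of ganglion cell markers.

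Of the 3 nuclear lamins, which line the nuclear envelope, 0 passed the test. Lmna had 0.31 to 0.93 in ONC libraries and -0.19 to 0.28 in Control libraries, a difference of 0.64 ± 0.15 (SE, limma adjusted p = 0.0784). Every ONC library thus lay above every Control library, as for 3.39% of all genes. Lmnb2 differed by -0.10 and Lmnb1 by 0.01. Of 17 listed keratins and lens beaded filament genes 9 were in the table and 0 passed, with Krt1 at 0.66 ± 0.22 (adjusted p = 0.163) and Krt15 at -1.45 ± 0.53 (adjusted p = 0.189) the nearest.

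**Figure D5:**
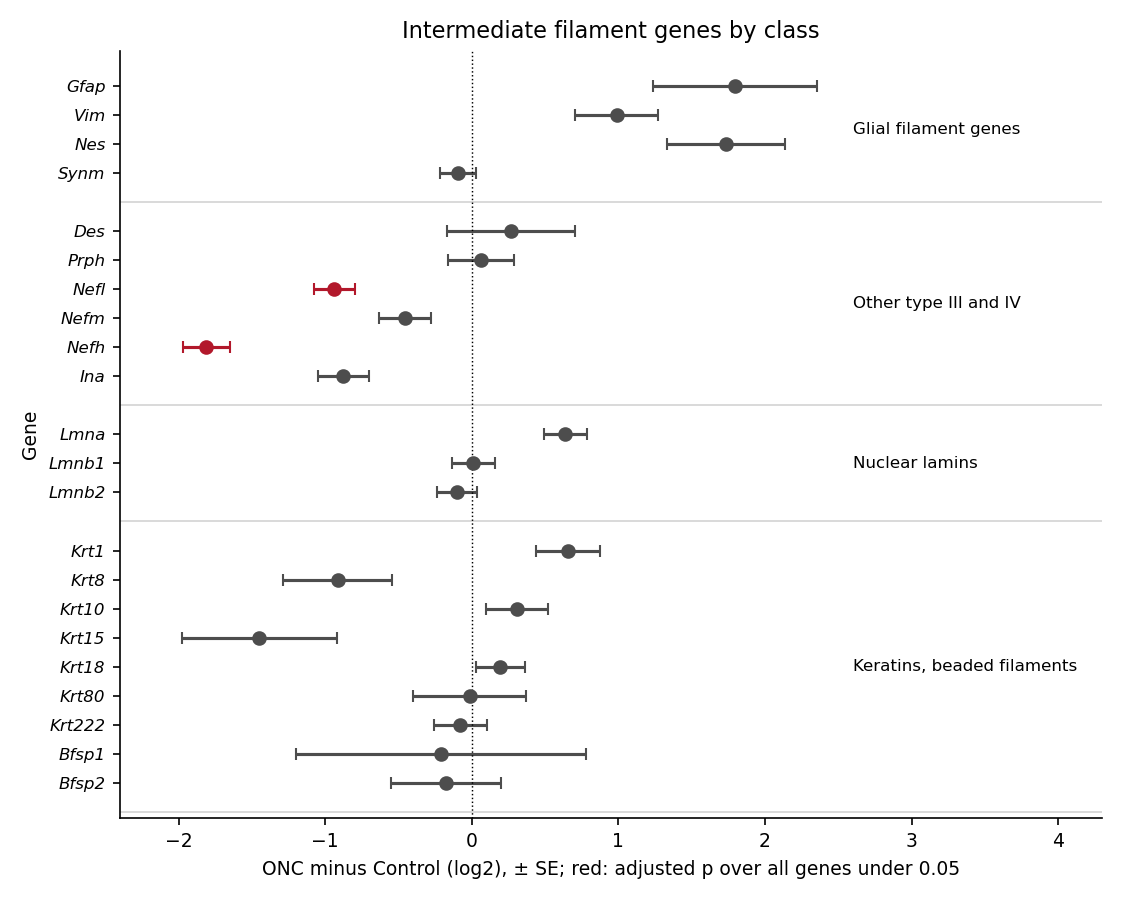
Log2 difference, ONC minus Control, ± SE (horizontal axis) of each measured intermediate filament gene, grouped by class, with red points for an adjusted p under 0.05. Nefh at -1.81 and Nefl at -0.94 are red, and Gfap at 1.80, Nes at 1.73 and Vim at 0.99 have the wider errors given above.

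Proteins that bind, anchor or fold filaments passed in 0 of 17 genes, with a median of -0.04. At an unadjusted p under 0.05 stood 9 of the 17, against 19.5% of all genes. Hspb1, a small heat shock protein that binds GFAP and vimentin filaments, differed by 1.04 ± 0.21 (SE, limma adjusted p = 0.0577). It passed when Control 914/92, its highest Control library, was left out (adjusted p = 0.0385). Lgals3, for galectin-3, differed by 1.28 ± 0.30 (adjusted p = 0.0848). The linkers Plec, Dst and Macf1, which tie filaments to actin or microtubules and are named here after their values were seen, had differences of -0.67, -0.71 and -0.82, with adjusted p of 0.214, 0.185 and 0.175. Of 18 measured kinases, phosphatases and deiminases that modify filaments 0 passed, and 0 stood at an unadjusted p under 0.05. Prkca, with -0.55 ± 0.27, and Cdk5r1, with -0.20 ± 0.11, had the smallest p (adjusted p = 0.286 and 0.335). Prkca is also on the list of bipolar, amacrine and horizontal cell markers.

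Of 17 measured transcription factors known to act on filament genes or glial reactivity, 1 passed, against 1.16% of all genes, and their median difference was 0.33. Junb, an AP-1 subunit, had 1.35, 1.28, 0.60, 1.50 and 1.00 in ONC libraries, against 0.51 in Control 914/92 and -0.31 to 0.00 in the other controls. It rose by 1.13 ± 0.22 (SE, limma adjusted p = 0.0493), close to the threshold, and the call ended with the block (0.0529), with a variance trend (0.0723) and with 7 of the 9 libraries left out singly (up to 0.165). Stat3, the transcription factor through which cytokines of the gp130 type act on Gfap, had 0.65 to 1.13 in ONC libraries and 0.77 in Control 914/92, a difference of 0.81 ± 0.20 (adjusted p = 0.0962). Without Control 914/92, Stat3, Jun, Cebpb and Fosl1 passed as well (adjusted p = 0.0217, 0.0323, 0.0284 and 0.0292), against 0.817% of all genes higher in ONC. It was the highest Control library for each of them, so leaving it out raises their differences by construction. With the block Jun, Fos and Cebpb passed (0.0374, 0.0341 and 0.0341), against 0.479% of all genes higher in ONC. Fosl1 stood at 3.66 to 5.48 in ONC libraries and at 4.51 in Control 914/92, against -2.39 to 1.12 in the other controls. It passed the raw filter in 1 condition only, so its call is a description. Sox9, a glial lineage factor, differed by 0.41 ± 0.28 (adjusted p = 0.423). Sox9 and Hes1 are also on the list of Müller glia markers. The regulators' library median was -0.09 to 0.72 in ONC libraries, 0.31 in Control 914/92 and -0.40 to 0.00 in the other controls.

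Genes whose values lay nearest to those of a filament gene over all 9 libraries were found by the mean absolute log2 difference, for the 3 genes whose values span more than 2 on the log2 scale. The choice used every library, Control 914/92 included. Similar values in that library and similar ONC minus Control differences therefore follow from the choice, and are given as descriptions. Nearest to Gfap (span 3.79) were S100a6, Hmox1, Cebpd, Prtn3 and Tagln2, at 0.323 to 0.365. In Control 914/92 these had 1.03, 1.79, 1.61, 1.06 and 1.03, and their ONC minus Control differences were 1.70, 2.22, 1.77, 1.83 and 1.71. Hmox1 encodes the haem-degrading enzyme heme oxygenase 1 and Cebpd a transcription factor of the acute phase. Nearest to Vim (span 2.00) were Tmem159, Flot1, Ube2l6, Sat1 and Mvp, at 0.0867 to 0.112, with differences of 0.79 to 0.93.

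Nearest to Nes (span 3.06) were Tubb6, Glipr2, Cebpd, Fas and Nlrc5, at 0.218 to 0.273, with differences of 1.44, 1.84, 1.77, 1.45 and 1.52. In Control 914/92 they had 1.41, 1.60, 1.61, 1.49 and 1.50, each above Nes itself. Cebpd was near to both Gfap and Nes. By the same measure Nes was the 24th gene nearest to Gfap (0.52) and Vim the 136th (0.81), while Gfap was the 60th nearest to Nes and Vim the 160th. Counted from Vim, whose values span less, Nes was only the 6569th nearest gene and Gfap the 9582nd. None of the genes named for likeness passed the test between ONC and Control, and neither did the filament genes they were chosen to resemble.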

How the data were processed

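Ribosome-bound RNA was sequenced from 5 ONC and 4 Control libraries. The treatment label gave the groups and the animal numbers the pools, so fellow eyes of 4 pools are paired by animal; deviations of the eyes of a pool from their group means correlated at 0.377, 0.178, -0.0642 and 0.450 over genes (pools 914/92, 938/88, 976/978 and 981/982). The replicates are separate pools of animals. The authors deposited normalized log2 values for 14194 entries (14193 symbols), filtered, per the file headers, to raw values of 5 to 298892.188, reached by 100% of a condition's libraries in 1 or both of the 2 conditions; 13555 passed in both and 639 in 1. The log base and the centring on Control were read from the values: the most repeated difference between libraries recurs 1 apart in 35 of 36 library pairs, and 13230 genes have exactly 1 Control library at 0. A Control library at 0.00 is therefore often that gene's baseline; 959 genes have none at 0 and 2 on each side of it, as a median over 5 controls could give. The submitters' processing notes name mm10 and DESeq without a version; the aligner and the read counter are not given in these sources. Depth is unknown, so no counting interval is given and precision is set by the number of libraries. The deposited "Number Passed" value gives the conditions passing that filter. Symbols turned into dates (22) were restored by Entrez ID in RefSeq's GRCm38.p6 table, which also gave the promoters and coordinates (4 of 4 genes matched).

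The log2 values were fitted with limma 3.58.1 (R 4.3.3), two-sided, without a variance trend, since the mean of control-centred values follows the difference under test; p-values were Benjamini-Hochberg adjusted over all entries with a threshold of 0.05. Alternatives were a variance trend, the pool as a replicate block, both, quantile and median normalization, genes passing in both conditions, each library left out and pool 914/92 left out; the block without pool 914/92 and centring on Müller glia markers were added after seeing the data. On simulated data for ONC against Control (14194 genes), the fit without a block recovered 70.0% of genes changed by 1 and 97.8% of those changed by 3 on the log2 scale, and the fit with the block 37.6% and 94.8%. The simulated noise was independent between libraries, with no pool effect, so the block had nothing to remove there. These rates are for genes drawn from the whole table, whose median SE was 0.156. The filament genes had larger SE for Gfap (0.56), Nes (0.40) and Vim (0.28), so the rates are not theirs. The filament genes, lists and tests were chosen with earlier results of these data known. Named are the 4 genes, list members past the threshold or else the 2 smallest p of a list, and the 5 genes nearest to each filament gene spanning over 2; Sox9, Stat3, Jun, Fos, Cebpb, Fosl1, Ina, Nefm, Prph, Des, Lmnb1, Plec, Dst, Macf1, C1qa and C1qc fall outside that rule and were chosen after their values were seen.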

Additional observations from a re-analysis of the deposited data

Results flagged for a closer look

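Of 44 sets of values looked at, 40 of ONC or Control values (the 4 genes and the list medians) and 4 of differences over pools, 6 held a library far from the others of its group; chance alone flags about 1 in 20. Synm in ONC library 914/92, at 0.34, stood above the other 4 ONC libraries. The median of the other type III and IV filaments in ONC library 976/978 was -1.01, below the other ONC libraries. The median of keratins and lens beaded filaments in Control 976/978 was -0.20 and that of microglia and macrophages in Control 981/982 was -0.13, both set against controls at exactly 0, a value that the centring of each gene gives. The median of other leukocytes, resting on 3 genes, was 1.09 in Control 938/88. The median of bipolar, amacrine and horizontal cell markers was -0.44 in Control 914/92, the library with raised Gfap, Vim and Nes. The values of that library for Gfap, Vim, Nes and Synm did not themselves meet this criterion.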

How the results depend on the processing

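No difference of the 4 filament genes changed sign under 18 alternatives, and past the threshold were Gfap in 1 of them, Vim in 1, Nes in 3 and Synm in 0, with limma adjusted p from 0.0412 to 0.446, 0.0373 to 0.299, 0.0247 to 0.268 and 0.410 to 0.907. With each library left out in turn, the log2 difference ran from 1.49 to 2.35 for Gfap, 0.80 to 1.19 for Vim, 1.54 to 2.09 for Nes and -0.18 to -0.03 for Synm. With the pool as replicate block Vim (0.88) and Nes (1.67) passed, and without pool 914/92 Nes (1.90) did; exact sign flips over the 4 pairs gave p = 0.125 for Gfap, Vim and Nes, the smallest they can give. The 165 genes past the threshold became 50 with a variance trend, 129 with the block, 0 with both (3574 at an unadjusted p under 0.05), 30 after quantile normalization, 102 among genes passing in both conditions, 20 with the block without pool 914/92, 65 after Müller glia centring, and 62 (without Control 976/978) to 234 (without ONC 981/982) with a library left out. With quantile normalization the difference of Gfap was 1.28 ± 0.67 (SE). The causes were not tested. Depth is unknown, and 4 and 5 libraries limit the precision.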

Other observations

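The lens beaded filament genes, picked here after their values were seen, had high values in 1 library of each group. Bfsp1 had 2.79 in ONC 981/982 and 2.76 in Control 914/92, against -1.12 to 0.00 in the other 7 libraries. Bfsp2 had 0.71 in ONC 981/982 and 0.98 in Control 914/92, against -0.87 to 0.04 elsewhere. Neither passed the test between ONC and Control (limma adjusted p = 0.915 for Bfsp1 and 0.803 for Bfsp2).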
